A study of Mus musculus with 4 samples.

Results

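Potassium channel genes were defined as the protein-coding mouse genes of RefSeq (assembly GRCm38.p6, which the build mm10 names) whose symbol begins with Kcn, under a rule that sets 1 such gene aside. It gave 93 genes of 21887 protein-coding genes and used no measured value. The rule and the gene lists used below were nevertheless chosen with earlier results of these data known. Each gene was scored by the ATAC-seq peaks within 1 kb of either annotated end, inside the gene and within 50 kb of it. ATAC-seq marks DNA that a transposase can cut, so a called peak is a stretch of accessible chromatin.

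All libraries came from clone 11 of mpkCCD, a cultured line from mouse cortical collecting duct, so a single clone stands for that tissue here, at passages 8 to 10. They were grown to confluence on permeable supports and moved to medium without serum or hormones. They then received 0.1 nM dDAVP, an agonist selective for the V2 vasopressin receptor, or the vehicle alone, and were collected 30 minutes later. There were 2 libraries per treatment from 50000 cells each, with no other difference between the groups in the labels, which do not say whether the 2 came from separate cultures. The spread between libraries may therefore be technical.

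Potassium channels let potassium leave or enter cells down its electrochemical gradient and set the membrane voltage. In the collecting duct they recycle potassium at the basolateral membrane and secrete it at the apical membrane, while other members of the family shape action potentials in neurons and heart muscle. Pore-forming subunits are grouped by their gating, namely voltage-gated (Kcna, Kcnb, Kcnc, Kcnd, Kcnh, Kcnq), inward rectifier (Kcnj), two-pore domain (Kcnk) and calcium- or sodium-activated (Kcnma, Kcnn, Kcnt, Kcnu). The Kcnf, Kcng, Kcns and Kcnv proteins do not conduct alone and modify voltage-gated channels, and the Kcnab, Kcne, Kcnip and Kcnmb proteins are auxiliary.

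The lists held 291454 and 205771 peaks in the dDAVP libraries, against 393956 and 206972 in the vehicle libraries. They give positions and no score or read depth, so a longer list may only reflect a deeper library, and vehicle replicate 1 has by far the longest. Of 10 collecting duct marker genes, 7 had a gene-end peak in all 4 libraries, among them Aqp2, the vasopressin-regulated water channel, while Avpr2, which encodes the V2 receptor, had one in 1 library of each treatment. Of 10 neuron markers 6 had one in all 4 libraries, and of 10 cardiomyocyte markers 4. Gene-end peaks thus also lay at marker genes of other cell types. Chromosomes also differed, with 43.7% of genes on chromosome 7 and 29.8% on chromosome X having a gene-end peak in all 4 libraries.

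RefSeq promoter sequences, from 250 bases before to 50 after a transcription start, were at hand for 68 of the 93 genes. Below are 5 of them on GRCm38.p6, given 5′ to 3′ on the gene's strand with CpG dinucleotides in capitals. They were picked after their values were seen, to show promoters rich and poor in CpG that carried a peak and others that did not.

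Kcnmb4, chr10:116473474-116473773, minus strand: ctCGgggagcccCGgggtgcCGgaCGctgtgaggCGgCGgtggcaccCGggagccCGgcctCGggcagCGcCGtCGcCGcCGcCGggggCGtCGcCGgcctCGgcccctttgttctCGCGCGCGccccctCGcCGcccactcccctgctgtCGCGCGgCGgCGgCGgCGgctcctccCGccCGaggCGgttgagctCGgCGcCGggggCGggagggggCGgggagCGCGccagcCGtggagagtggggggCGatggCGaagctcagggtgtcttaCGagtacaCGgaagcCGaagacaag
Kcnk1, chr8:125994852-125995151, plus strand: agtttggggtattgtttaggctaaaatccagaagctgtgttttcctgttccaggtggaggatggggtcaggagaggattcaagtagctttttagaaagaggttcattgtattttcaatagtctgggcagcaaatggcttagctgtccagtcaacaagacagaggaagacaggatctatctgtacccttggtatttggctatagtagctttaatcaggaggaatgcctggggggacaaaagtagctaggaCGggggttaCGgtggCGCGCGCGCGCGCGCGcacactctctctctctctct
Kcnj16, chr11:110967783-110968082, plus strand: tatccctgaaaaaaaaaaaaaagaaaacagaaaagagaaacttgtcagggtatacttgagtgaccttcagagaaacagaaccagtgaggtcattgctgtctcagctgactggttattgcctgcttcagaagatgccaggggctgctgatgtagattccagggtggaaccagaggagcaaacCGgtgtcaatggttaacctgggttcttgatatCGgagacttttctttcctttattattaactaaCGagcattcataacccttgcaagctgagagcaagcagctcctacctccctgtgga
Kcnj13, chr1:87394680-87394979, minus strand: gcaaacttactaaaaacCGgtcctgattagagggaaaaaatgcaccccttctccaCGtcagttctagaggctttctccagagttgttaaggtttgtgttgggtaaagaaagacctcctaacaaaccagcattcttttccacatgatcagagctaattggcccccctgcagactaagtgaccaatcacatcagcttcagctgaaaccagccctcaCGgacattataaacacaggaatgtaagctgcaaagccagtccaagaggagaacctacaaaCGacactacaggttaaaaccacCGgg
Kcnc1, chr7:46396218-46396517, plus strand: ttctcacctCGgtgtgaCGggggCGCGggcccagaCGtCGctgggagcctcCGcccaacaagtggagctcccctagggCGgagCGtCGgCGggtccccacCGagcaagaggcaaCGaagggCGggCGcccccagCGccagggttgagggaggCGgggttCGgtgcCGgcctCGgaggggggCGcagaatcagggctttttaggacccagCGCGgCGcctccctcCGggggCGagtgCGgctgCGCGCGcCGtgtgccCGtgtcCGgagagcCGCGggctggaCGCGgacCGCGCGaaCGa

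The Kcnmb4 promoter holds 48 CpG and was covered by a peak in all 4 libraries, and the Kcnk1 promoter holds 10, all within its last bases, with a peak that reaches over its 3′ end in all 4. The Kcnj16 promoter shown, at the outermost of 4 RefSeq starts, holds 3 CpG and was covered in all 4 libraries. The Kcnj13 promoter holds 5 CpG, and the Kcnc1 promoter 41, and neither carried a peak in any library.

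Of the 93 potassium channel genes, 58 (62.4%) had a gene-end peak in all 4 libraries, against 65.0% of all protein-coding genes. Taking for each gene the share of its own chromosome, 69.0% would have been open, that is 64.2 genes. Genes with no gene-end peak in any library were 8 of 93 (8.60%), against 19.2% of all genes. The family thus lay near the genome in genes open everywhere and had fewer genes closed everywhere, which left 27 genes open in some libraries. Of these 27, dDAVP replicate 1 had a peak at 16 and dDAVP replicate 2 at 8, against 24 in vehicle replicate 1 and 9 in vehicle replicate 2. The libraries stood in the same order by length of list, and a link to it was not tested. In single libraries 74 and 66 genes (79.6% and 71.0%) were open under dDAVP, against 82 and 67 (88.2% and 72.0%) under vehicle. Over all protein-coding genes the shares were 74.2% and 69.4% under dDAVP, against 78.2% and 70.0% under vehicle. A peak anywhere inside the gene or at its ends was found in all 4 libraries for 80 genes (86.0%), against 77.1% of all genes. Genes of the family are longer, with a median of 32876 bp, against 17169 bp over all genes. A link of this share to gene length was not tested. Where a gene was open in all 4 libraries, the widest gene-end peak had a median width of 806 bp in the family and 1001.5 bp over all genes.

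**Figure D1:**
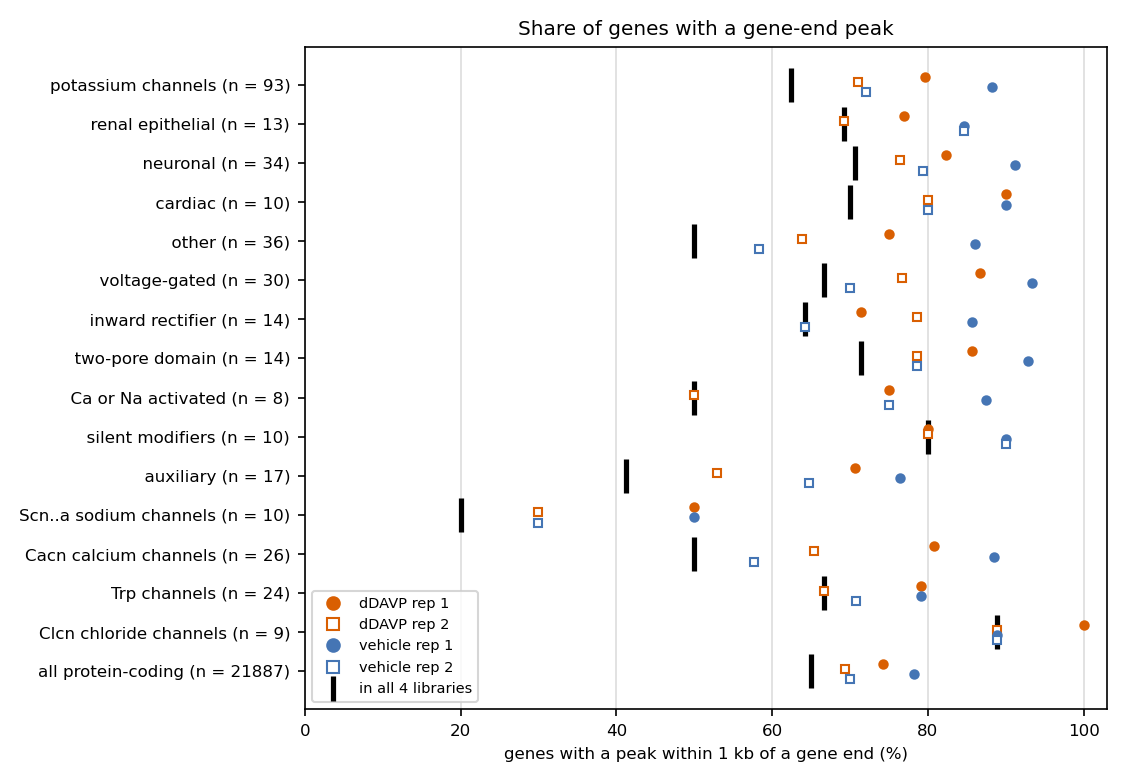
Share of genes (%, x axis) with a peak within 1 kb of a gene end, for the family, its classes and roles, other channel families and all protein-coding genes (y axis). Points are single libraries and the black bar is the share open in all 4 libraries, which is 62.4% for potassium channel genes and 65.0% for all genes.

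The 13 genes listed as renal epithelial, from textbook knowledge of the nephron, spanned the full range from wide peaks to none. A gene-end peak was called in all 4 libraries at 9 of them (69.2%). The widest belonged to Kcnk5, a two-pore domain channel of the proximal tubule, on chr14:20140057-20181782. Its widest gene-end peak measured 1497 and 1691 bp in the dDAVP libraries, against 1493 and 1356 bp in the vehicle libraries, with a mean of 1509 ± 138 bp (SD, n = 4 libraries). Kcnmb4, an auxiliary subunit of the large-conductance calcium-activated (BK) channel, measured 1457 and 1302 bp under dDAVP, against 1671 and 1473 bp under vehicle. The treatments did not overlap at either gene, with Kcnk5 wider under dDAVP, by 4 bp at the nearest pair of libraries, and Kcnmb4 wider under vehicle. With 2 libraries per treatment an exact permutation p cannot go below 0.333.

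Kcnma1, which encodes the pore of the BK channel that secretes potassium when tubular flow is high, varied far more. Its gene-end peak was 910 and 370 bp wide in the dDAVP libraries, against 1690 and 590 bp in the vehicle libraries, so that within each treatment replicate 1 was the wider. Kcnq1, a voltage-gated channel of epithelia and heart, measured 833 and 697 bp under dDAVP, against 1717 and 895 bp under vehicle. Its auxiliary subunit Kcne1 stayed between 784 and 931 bp in the 4 libraries, with 815 and 784 bp under dDAVP, against 830 and 931 bp under vehicle. For Kcnq1 and Kcne1 every vehicle library was wider than both dDAVP libraries.

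Among the inward rectifiers, Kcnj10 and Kcnj16 encode the subunits of the basolateral channel of the distal nephron, and Kcnj15 a relative found in the proximal tubule. The Kcnj10 peak was 1142 and 877 bp wide under dDAVP, against 737 and 821 bp under vehicle, and lay across the RefSeq start in all 4 libraries. Kcnj16 had 122 and 250 bp under dDAVP, against 495 and 278 bp under vehicle, and Kcnj15 had 179 and 171 bp, against 363 and 185 bp. The Kcnj15 peaks were different sites. They lay upstream of its start under dDAVP, downstream of it in vehicle replicate 1 and at the other gene end in vehicle replicate 2. The 2 partners of one channel differed in width in every library, with means of 894 ± 175 bp for Kcnj10 and 286 ± 155 bp for Kcnj16 (SD, n = 4 libraries). Kcnj13, an inward rectifier of other transporting epithelia, had no peak inside the gene or within 1 kb of it in any library, and no region of all 4 libraries within 50 kb. Gigyf2 shares an end window with it.

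Kcne3, an auxiliary subunit that keeps Kcnq1 open in epithelia, was closed at its gene ends in all 4 libraries and had a single peak of 91 bp within 1 kb of a RefSeq start, in vehicle replicate 1. Kcnn4, the intermediate-conductance calcium-activated channel, had gene-end peaks of 128 bp in dDAVP replicate 1, none in dDAVP replicate 2, and 316 and 104 bp in the vehicle libraries. Both genes lie on chromosome 7, where 43.7% of genes had a gene-end peak in all 4 libraries, against 65.0% of all genes. A link to the chromosome was not tested. Kcna10, a voltage-gated channel, had 450 and 600 bp under dDAVP, against 341 and 96 bp under vehicle. The dDAVP peaks lay at its start and the vehicle peaks at its other end, so these widths belong to different sites.

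Kcnk1, a two-pore domain channel of the kidney, was a case in which the annotated gene end missed the peak. Within 1 kb of its gene ends (chr8:125993655-126030685) no peak was called in either dDAVP library, against peaks of 358 and 469 bp in the vehicle libraries. Its RefSeq start lies 1447 bp inside the outer end, and there a peak was called in all 4 libraries, 2325 and 2320 bp wide under dDAVP, against 2222 and 2219 bp under vehicle. At 2272 ± 58.9 bp (SD, n = 4 libraries) it was the widest start peak among the 68 genes with a known start. It began 93 and 84 bases before the start in the dDAVP libraries, against 0 and 17 bases after it in the vehicle libraries, and ended 2221 to 2235 bases after the start in the 4 libraries. Of the promoter shown above the peak covered the last 143 and 134 bases under dDAVP, against 50 and 33 bases under vehicle, and the rest of it lay downstream.

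**Figure D2:**
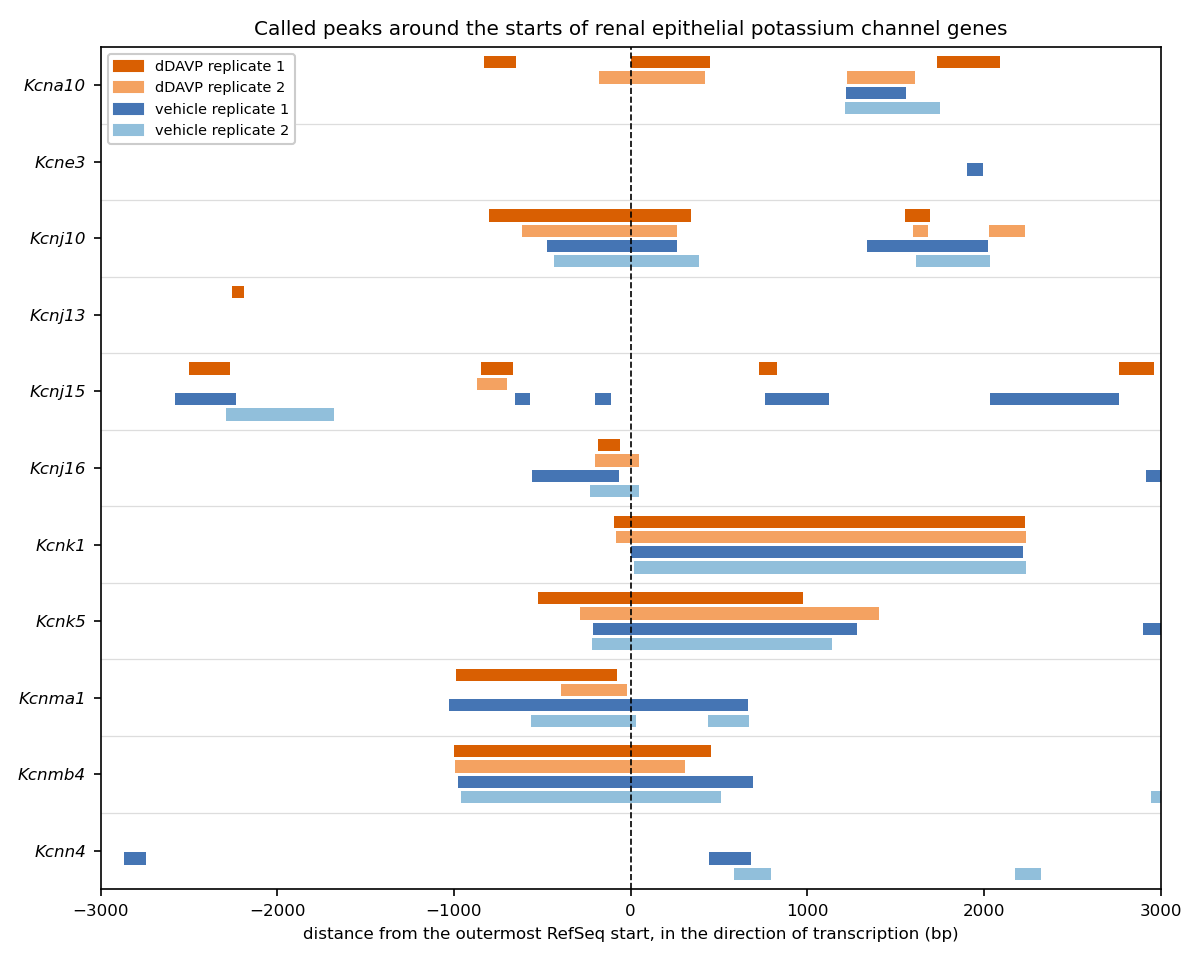
Called peaks (bars) within 3 kb of the outermost RefSeq start of 11 renal epithelial genes, by library; the x axis is distance from the start along the direction of transcription. The Kcnk1 peak runs from near the start to about 2235 bp downstream in all 4 libraries, while the Kcnj13 panel holds a single peak of 72 bp, in dDAVP replicate 1, over 2 kb upstream of the start.

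The 34 genes listed as neuronal were open at a share close to that of the renal ones. In all 4 libraries 24 (70.6%) had a gene-end peak. Renal minus neuronal was -1.36 percentage points, a difference that varied with an SD of 5.85 points between single libraries. The 10 cardiac genes had 7 (70.0%), and the 36 remaining genes 18 (50.0%). From their chromosomes alone, 64.8% of renal, 73.0% of neuronal, 69.5% of cardiac and 66.6% of the remaining genes would have been open. Genes are not replicates of a class, so no test is given. The order of the renal and neuronal shares turned with the window: renal minus neuronal was -7.92 points with 0.5 kb and 8.14 points with 2.5 kb.

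The widest peaks at neuronal genes were of a width like the widest at renal genes. Kcnc4, a fast voltage-gated channel, had 2340 and 475 bp under dDAVP, against 2451 and 1375 bp under vehicle. Its replicate 1 exceeded replicate 2 within each treatment, and the treatments overlapped. In both replicate 2 libraries the site was called as more than 1 peak. Over the joined region, chr3:107457991-107460688, the peaks summed to 2340 and 1312 bp under dDAVP, against 2451 and 1647 bp under vehicle. Kcnq3 and Kcnq5, which carry the neuronal M current, averaged 1469 ± 168 bp and 1342 ± 455 bp over the 4 libraries. Kcnh3, of the ether-à-go-go family, averaged 1342 ± 142 bp, and Kcnn1, a small-conductance calcium-activated channel, 1284 ± 102 bp (SD, n = 4 libraries for each). Mcrs1 shares an end window with Kcnh3, whose start is not among the promoters at hand. The single neuronal gene with no gene-end peak in any library was Kcnip1, an auxiliary subunit of Kcnd channels. It still had 6 regions of all 4 libraries within 50 kb. At a RefSeq start it had peaks of 157 bp in dDAVP replicate 1 and 1758 bp in vehicle replicate 1, and none in either replicate 2. Kcnc1, whose channel lets interneurons fire fast and whose CpG-rich promoter is shown above, had a gene-end peak of 1160 bp in vehicle replicate 1 and none in the other 3 libraries.

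No cardiac gene averaged as wide as these. Kcnd3, a channel of the transient outward current, had 1119 and 1106 bp under dDAVP, against 1757 and 740 bp under vehicle, and Kcnh2, of the rapid delayed rectifier current, had 953 and 732 bp, against 1596 and 504 bp. By this measure both dDAVP libraries lay between the 2 vehicle libraries at each of these genes. The RefSeq start of Kcnh2 lies 22093 bp inside the outer end, and its far gene end had a peak in all 4 libraries. In dDAVP replicate 2 the far end held the only gene-end peak. At the Kcnh2 start the widths were 703 and 1014 bp under dDAVP, against 1061 and 998 bp under vehicle. That order did not hold there. Kcnk3, a two-pore domain channel, had 881 and 865 bp under dDAVP, against 791 and 876 bp under vehicle, the smallest SD (42.0 bp) of any potassium channel gene open in all 4 libraries. Kcnip2, Kcnj2 and Kcnj12, an auxiliary subunit and 2 inward rectifiers, averaged 778 ± 150, 470 ± 182 and 458 ± 241 bp (SD, n = 4 libraries for each). At RefSeq starts the widest peaks were narrower for Kcnip2 and Kcnj12, at 465.5 ± 124 and 76.8 ± 54.7 bp (SD, n = 4 libraries for each). The Kcnj12 start lies 43240 bp inside the outer end, and Armh3 shares an end window with Kcnip2. Kcnj3, a subunit of the acetylcholine-activated channel of the atrium, was closed at its gene ends in all 4 libraries. Its RefSeq start lies 24172 bp inside the outer end. There it had a peak of 672 bp in dDAVP replicate 1, none in dDAVP replicate 2, and 528 and 145 bp in the vehicle libraries.

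**Figure D3:**
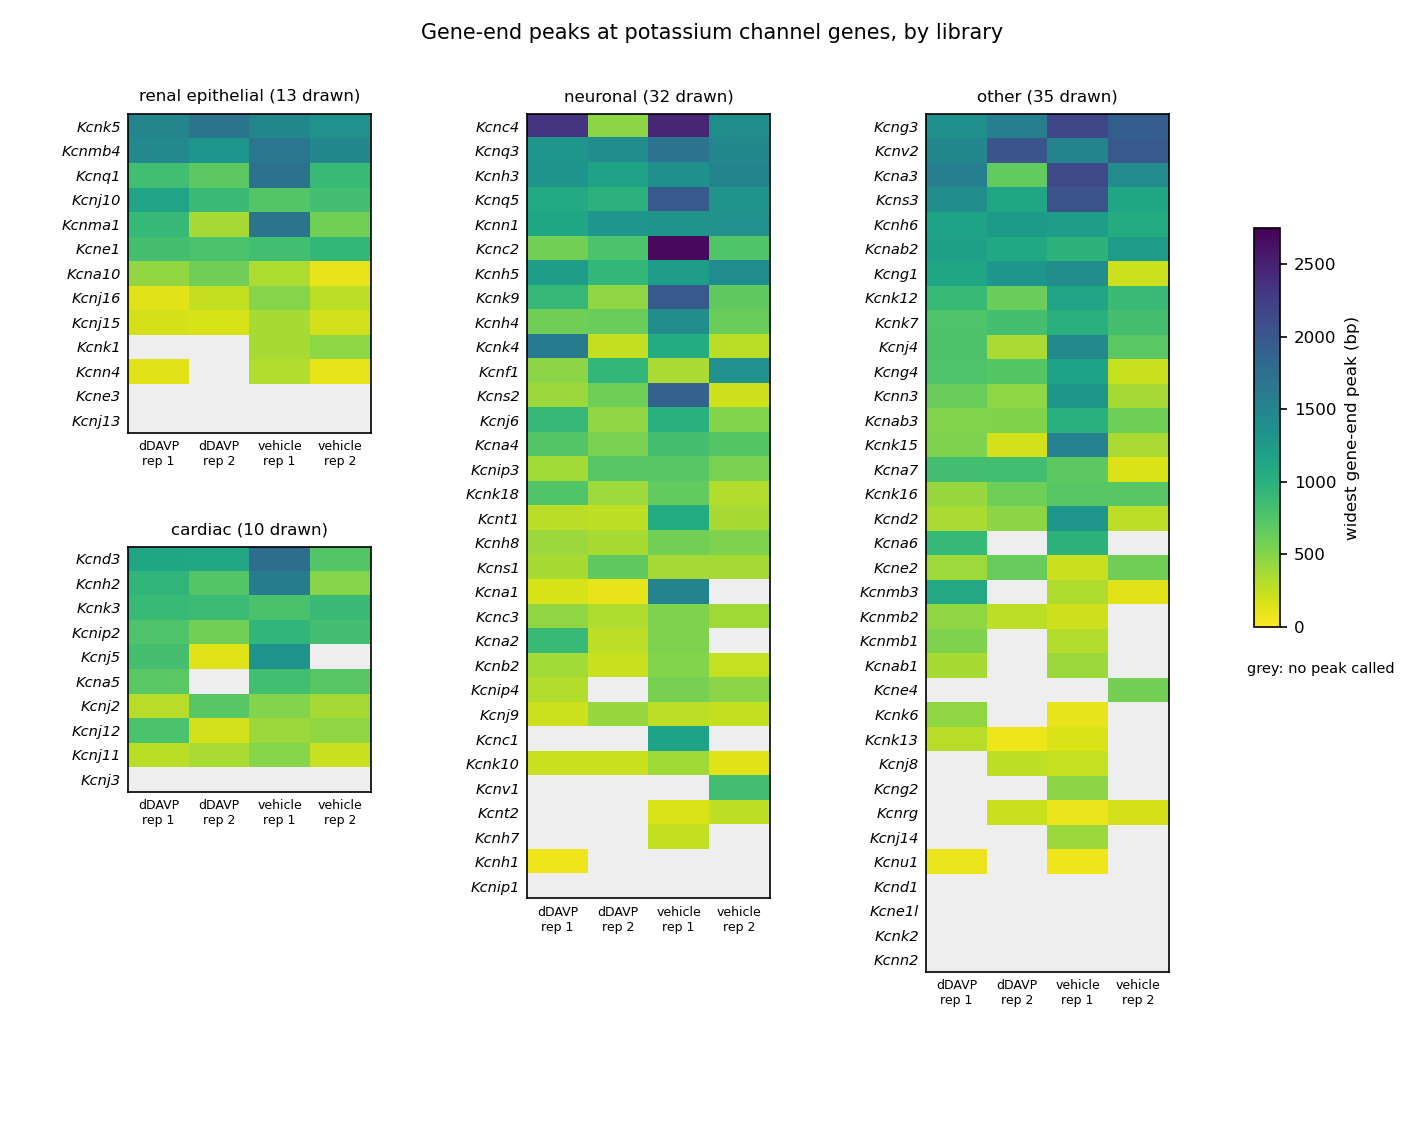
Width of the widest gene-end peak (bp, colour scale) of 90 potassium channel genes (rows) in each library (columns), by class. Rows are ordered by mean width, from Kcnk5 to Kcnj13 among renal genes; grey cells have no called peak, and vehicle replicate 1 has the fewest of them.

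By role, auxiliary subunits stood lowest, with 7 of 17 open in all 4 libraries (41.2%), and calcium- or sodium-activated channels followed with 4 of 8. The silent modifiers stood highest with 8 of 10, two-pore domain channels had 10 of 14 (71.4%), voltage-gated channels 20 of 30 (66.7%) and inward rectifiers 9 of 14 (64.3%). From their chromosomes alone, 69.6% of auxiliary and 64.2% of calcium- or sodium-activated genes would have been open. The same reckoning gave 76.0% for silent modifiers, 73.3% for two-pore domain, 66.8% for voltage-gated and 66.7% for inward rectifier genes. The shares of these last roles lay near those values. Within the auxiliary group, 1 of 4 Kcnmb genes (Kcnmb4), 2 of 5 Kcne genes (Kcne1 and Kcne2), 2 of 4 Kcnip genes (Kcnip2 and Kcnip3) and 2 of 3 Kcnab genes (Kcnab2 and Kcnab3) were open, while Kcnrg, a regulator of channel assembly, was open in 3 libraries.

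Of the voltage-gated subfamilies, Kcnh had 6 of 8, without Kcnh1 and Kcnh7. Kcnc had 3 of 4, without Kcnc1, and Kcnd 2 of 3, without Kcnd1, while Kcnq1, Kcnq3, Kcnq5 and Kcnb2 were open. Kcna had 4 of 8, namely Kcna3, Kcna4, Kcna7 and Kcna10, and the other 4 had a peak in 2 or 3 libraries. Of the modifiers, Kcns had 3 of 3, Kcng 3 of 4 (without Kcng2), Kcnf1 was open and of the Kcnv pair Kcnv2 was open and Kcnv1 was not. Kcnn had 2 of 4 (Kcnn1 and Kcnn3), Kcnt1 was open and Kcnt2 was not, Kcnma1 was open, and Kcnu1, a channel of sperm, was not. The Kcnk genes not open in all 4 libraries were Kcnk1, Kcnk2, Kcnk6 and Kcnk13, and the Kcnj genes Kcnj3, Kcnj5, Kcnj8, Kcnj13 and Kcnj14. Subfamilies this small move by large shares with a single gene.

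By mean over the 4 libraries, the 2 widest gene-end peaks of the family belonged to silent modifiers. Kcng3 had 1369 and 1576 bp under dDAVP, against 2164 and 1924 bp under vehicle, and Kcnv2, expressed in photoreceptors, had 1462 and 2025 bp, against 1510 and 1983 bp. The Kcng3 groups did not overlap, and the Kcnv2 groups did. Kcna3, a channel of T lymphocytes, and Kcns3, another modifier, averaged 1447 ± 608 and 1420 ± 432 bp (SD, n = 4 libraries for each). In all, 10 genes averaged at least as wide as Kcnh3, and 2 of them (Kcnk5 and Kcnmb4) were renal epithelial.

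The 8 genes without a gene-end peak in any library were Kcnd1, Kcne1l, Kcne3, Kcnip1, Kcnj13, Kcnj3, Kcnk2 and Kcnn2. Kcnd1 and Kcne1l lie on chromosome X, Kcnn2 on 18 and Kcne3 on 7. On chromosomes 4, 7, 18 and X (no gene of the family lies on 13) 5 of 15 potassium channel genes (33.3%) were open in all 4 libraries, where the shares of all genes on the same chromosomes would give 44.7%. On the others 53 of 78 (67.9%) were open, where they would give 73.7%. Kcnd1, Kcne1l and Kcnj13 had no peak anywhere inside the gene or at its ends. Kcnk2, a mechanically gated two-pore domain channel, was closed at its annotated ends and open at an internal RefSeq start in all 4 libraries, with 534 and 577 bp under dDAVP, against 919 and 213 bp under vehicle.

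Scored at RefSeq starts alone, 45 of the 68 genes with a known start (66.2%) had a peak within 1 kb of a start in all 4 libraries, against 64.6% of all genes in the promoter table. The far gene end was open in 13 of the 68 (19.1%), against 16.2%. Where open, the start peak had a median width of 810 bp in the family, against 1019 bp over all genes. Two-pore domain channels were open at a start in 11 of 11 genes, auxiliary subunits in 7 of 15 (46.7%) and inward rectifiers in 6 of 12. By class, 6 of 11 renal, 17 of 23 neuronal (73.9%), 4 of 8 cardiac and 18 of 26 remaining genes (69.2%) were open at a start. In this way 6 genes were open at a start in all 4 libraries and not at their gene ends (Kcna2, Kcnab1, Kcnk1, Kcnk13, Kcnk2 and Kcnmb3), and 4 the other way round (Kcna10, Kcng4, Kcnj12 and Kcnj15). No start peak was called in any library for Kcne1l, Kcnj13 and Kcnrg, which is 4.41% of the 68 genes, against 20.4% of all genes.

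The 300-base promoters themselves, taking the most CpG-rich start of each gene, carried a peak in all 4 libraries at 31 of 68 genes (45.6%), against 56.8% of all genes in the table. Among promoters with 20 or more CpG, 18 of 26 (69.2%) carried one in the family, against 91.2% of all genes. Among promoters with 10 to 19 CpG, 8 of 16 (50.0%) did, against 75.6%. Among promoters with under 10 CpG, 5 of 26 (19.2%) did, against 14.3%. CpG-rich promoters were about as common in the family (38.2% with 20 or more) as in the table (38.9%). By class, 5 of 11 renal promoters (45.5%), 12 of 23 neuronal (52.2%) and 2 of 8 cardiac ones carried a peak in all 4 libraries. With 20 or more CpG it was 4 of 4 renal (Kcnj10, Kcnk5, Kcnma1 and Kcnmb4), 6 of 11 neuronal and 0 of 1 cardiac promoters. With under 10 CpG it was 0 of 5 renal, 2 of 6 neuronal and 0 of 2 cardiac ones. Among these 5, Kcnj16 was taken at a start with 8 CpG. Its outermost promoter, shown above with 3 CpG, carried a peak in all 4 libraries. Kcnc1 and Kcnh7, with 41 and 21 CpG, carried a promoter peak in 0 and 1 library. Some start peaks lay beside the promoter: Kcnk4 and Kcna7 had a start peak in all 4 libraries and none on the promoter in any.

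**Figure D4:**
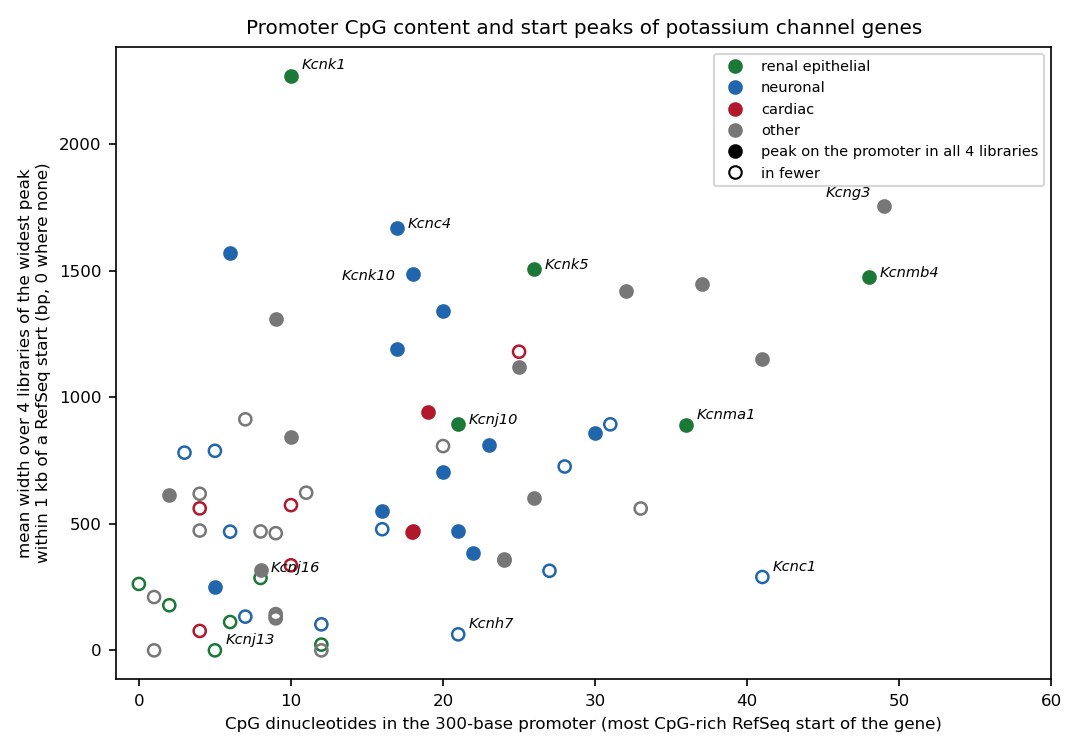
CpG dinucleotides in the 300-base promoter (x axis) against the mean width of the widest peak within 1 kb of a RefSeq start (bp, y axis) for 68 potassium channel genes, coloured by class. Filled points carried a peak on the promoter in all 4 libraries; Kcnk1 has the widest start peak (2272 bp) with 10 CpG, and Kcnc1 a mean of 290 bp with 41 CpG.

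Motifs were searched on both strands in the 93 RefSeq promoters of the 68 genes and in 21263 promoters of all protein-coding genes. The GC box GGGCGG was present in 48.4% of the family's promoters, against 46.2% of all, the E box CANNTG in 73.1%, against 69.0%, and TGTTCT, a single arm of the palindromic glucocorticoid receptor site, in 16.1%, against 16.2%. The short cAMP response element TGACG was present in 18.3%, against 23.6%, and its full palindrome TGACGTCA, which contains the short form, in 0 of 93, against 2.23%. CCAAT was present in 30.1%, against 38.2%, TATAAA in 5.38%, against 12.6%, and the ETS site CCGGAAG in 3.23%, against 11.6%. TGANTCA was present in 4.30%, against 6.99%, the grainyhead-like site AACCNGTT in 4.30%, against 1.95%, and the HNF1 palindrome in 0 of 93, against 0.00470%. In the sequences shown above, Kcnmb4 holds GGGCGG 4 times, Kcnc1 3 times and TGACG once, and Kcnj13 TATAAA once, 29 bases before the start. A match describes these letters and is not evidence of a bound factor.

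Away from gene ends, regions with a peak in all 4 libraries were counted. Each gene of the family had a median of 9 such regions inside it or within 50 kb, against 6 over all genes. With regions at the gene ends and in the flanks included, the median density was 5.45 per 100 kb, against 4.66. The median gene of the family is 32876 bp long, against 17169 bp, and pooled over gene bodies alone the density was 2.61 per 100 kb, against 3.17 over all genes. Densities by role and class again include flanks and gene ends. By role, the median per gene was 9.93 per 100 kb in silent modifiers, 8.88 in two-pore domain channels and 5.85 in inward rectifiers. It was 4.74 in auxiliary subunits, 4.11 in calcium- or sodium-activated and 3.43 in voltage-gated channels. By class it was 8.33 in renal, 4.99 in neuronal and 4.91 in cardiac genes. Pooled over gene bodies alone the order of the classes differed, with 3.15 per 100 kb in renal, 1.80 in neuronal and 5.34 in cardiac genes, and single long genes weigh on such sums. Kcnma1 adds 712823 bp and 2 regions to the renal one. Of the 46 regions inside inward rectifier genes, pooled to 6.25 per 100 kb, 29 lie in Kcnj6.

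Kcnj6, a G protein-gated inward rectifier of neurons on chr16:94744980-94997696, had the most regions of all 4 libraries, 29 inside the gene and 5 outside within 50 kb. Kcnn3, a small-conductance calcium-activated channel, had 15 inside and 13 outside, and Kcnd3 17 and 8. Kcnk13 and Kcnk7 had 21 each, those of Kcnk7 all outside its short gene. Kcnmb2 had 19, Kcnn1 and Kcnq1 with 18 each and Kcnip2 with 17. Kcnk7 also had the highest density, 21.3 per 100 kb with gene-end regions included. No region of all 4 libraries lay within 50 kb of Kcne1l, Kcnj13 or Kcnmb1, 3 of 93 genes (3.23%), against 8.06% of all genes. Regions outside a gene may belong to its neighbours, and 18 genes of the family share an end window with another gene (10 of these were open in all 4 libraries).

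**Figure D5:**
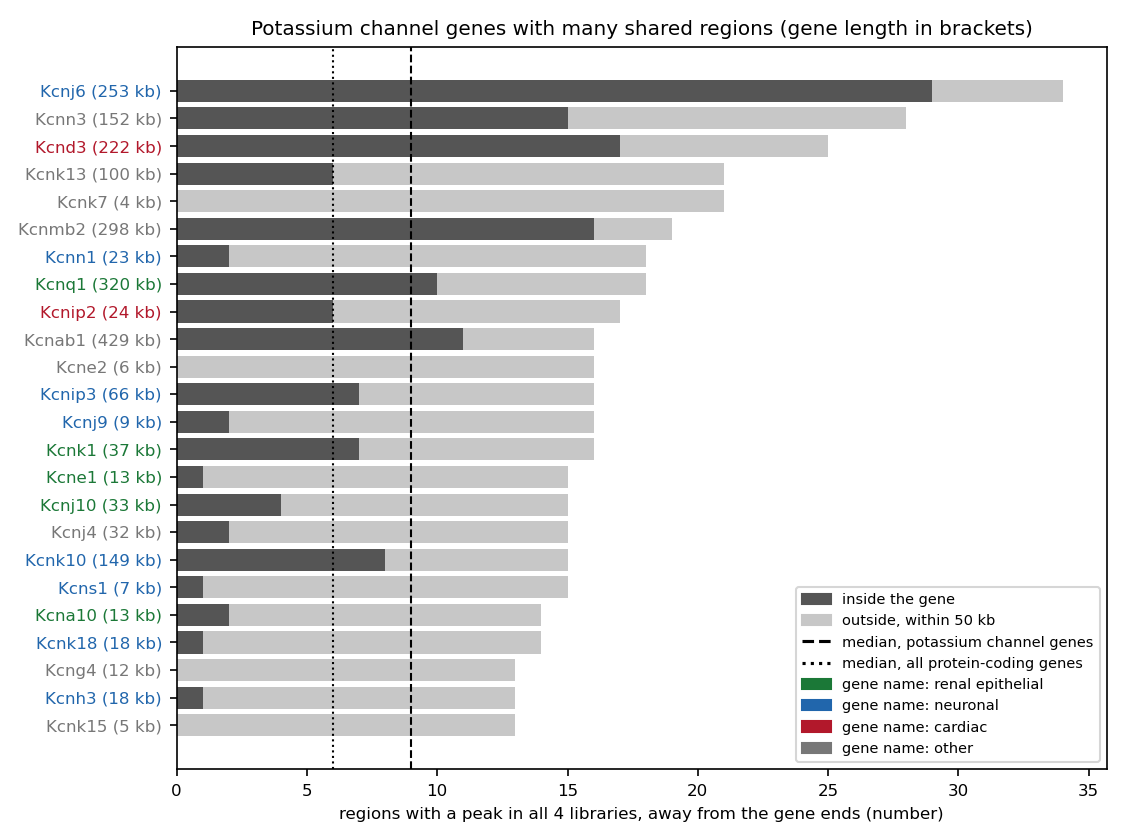
Number of regions with a peak in all 4 libraries (x axis), inside the gene (dark) and outside it within 50 kb (light), for 24 potassium channel genes with many (y axis, gene length in brackets). Kcnj6 leads with 34; the dashed line is the family median of 9 and the dotted line the median of 6 over all protein-coding genes.

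Other families were scored in the same way. Clcn chloride channel genes were open in all 4 libraries at 8 of 9 (88.9%), Trp channel genes at 16 of 24 (66.7%), Cacn calcium channel genes at 13 of 26 (50.0%) and Scn sodium channel alpha subunits at 2 of 10. Of 9 genes that encode partners of potassium channels under other names 2 were open, namely Lrrc26, an auxiliary subunit of the BK channel at 1735 ± 202 bp, and Amigo1, which binds voltage-gated channels in neurons, at 1455 ± 290 bp (SD, n = 4 libraries for each). Of 16 genes that work with potassium channels in secretion by the principal cell, such as the subunits of the sodium channel and the sodium pump and the Wnk kinases, 13 (81.3%) were open. Wnk1, one of these kinases, averaged 2328 ± 115 bp (SD, n = 4 libraries). Sodium channel subunit Scnn1b was open in 2 libraries, Klhl3 in 1 and Nedd4l, a ubiquitin ligase for that channel, in 0. They lie on chromosomes 7, 13 and 18, and a link to the chromosome was not tested.

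The second question of the design was whether 30 minutes of dDAVP changed accessibility around these genes. At gene ends, inside the genes and within 50 kb, 3058 and 2030 peaks were called in the dDAVP libraries, against 4091 and 2070 in the vehicle libraries. The means were 2544 ± 727 and 3080.5 ± 1429 (SD, n = 2 each), a log2 ratio of -0.28, with an exact two-sided permutation p of 0.667 where the smallest possible is 0.333. Without vehicle replicate 1 the log2 ratio was 0.30, the other direction. As a share of all peaks of a library, the family's peaks made up 1.05% and 0.987% under dDAVP, against 1.04% and 1.00% under vehicle.

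At gene ends, 0 potassium channel genes had a peak in each dDAVP library but not in a vehicle library (0.21% of all genes did), and 2 had the reverse, Kcnk1 and Kcnt2 (0.864% of all genes). Kcnt2, a sodium-activated channel, had none in the dDAVP libraries, against 153 and 258 bp in the vehicle libraries. At RefSeq starts, 1 gene had one under dDAVP alone, in both libraries (0.2% of all genes in the promoter table), and 2 the reverse, Kcnn4 and Kcnt2 (0.886%). The first was Kcna10, with peaks of 450 and 600 bp at its start in the dDAVP libraries, against none in the vehicle libraries. The nearest peaks of the vehicle libraries began 1220 and 1211 bases downstream, where dDAVP replicate 2 also had one, starting at 1223 bases. Counts of 1 and 2 genes were too few to read against these shares, and Kcnk1 was open at its start in all 4 libraries.

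The width of the widest gene-end peak was set side by side for the 58 genes open in all 4 libraries. That peak can lie at different sites in different libraries, as it did at Kcna10 and Kcnj15. It was wider in both dDAVP libraries than in both vehicle libraries at 4 of them (6.90%), against 14.9% of all open genes, and the reverse held at 16 (27.6%), against 14.4%. The 4 were Kcna10, Kcna7, Kcnj10 and Kcnk5, 3 of them renal epithelial. Among the 16 were the renal genes Kcne1, Kcnj15, Kcnj16, Kcnmb4 and Kcnq1 and the neuronal genes Kcnh3, Kcnh8, Kcnn1, Kcnq3, Kcnq5 and Kcnt1. The median width over the 58 genes was 768.5 and 652 bp under dDAVP, against 1103.5 bp in vehicle replicate 1 and 642.5 bp in vehicle replicate 2. With 3 libraries fewer values must be ordered and the shares over all open genes are larger. Without vehicle replicate 1, 15 genes (25.9%) were wider in both dDAVP libraries than in vehicle replicate 2, against 35.8% of all open genes, and 19 (32.8%) were narrower, against 30.7%. Without vehicle replicate 2, 8 (13.8%) were wider under dDAVP, against 31.3%, and 40 (69.0%) narrower, against 34.7%. Without dDAVP replicate 1 these were 10 (17.2%), against 31.6%, and 32 (55.2%), against 32.5%, and without dDAVP replicate 2 they were 9 (15.5%), against 31.7%, and 23 (39.7%), against 29.0%. The share narrower under dDAVP was thus near that of all open genes without vehicle replicate 1 and above it when any other library was left out. The genes were not tested as a list.

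Over all 5721 merged regions around the family, 87 (1.52%) were found in the 2 dDAVP libraries and in no vehicle library, against 1.61% of all regions, and 194 (3.39%) the reverse, against 3.35%. Both shares were close to those of the genome. Regions found under dDAVP alone were most numerous around Kcnj6, Kcnk13 and Kcnn3, with 5 each. Each of these genes had at least as many regions found under vehicle alone. The latter were most numerous around Kcnk10, a two-pore domain channel, with 8. The widest of the 4 found inside Kcnj6 under dDAVP alone lay at chr16:94844702-94845320. It had peaks of 553 and 137 bp in the dDAVP libraries and none in the vehicle libraries.

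For regions with a peak in all 4 libraries, width was the graded value that the lists give. Of 88231 such regions, limma called 0 (0.0%) different between dDAVP and vehicle at an adjusted p of 0.05, with a smallest adjusted p of 0.870, and 4655 (5.28%) had an unadjusted p below 0.05. Of the 886 around potassium channel genes 49 (5.53%) had an unadjusted p below 0.05, a share near that of all regions, and 0 were called. Their median log2 difference was 0.03, against 0.04 over all regions, and the middle 95% lay between -1.31 and 1.52, against -1.44 and 1.33. With 2 libraries per treatment, no depth and no peak score, differences in the amount of accessibility at an open site were not measurable here.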

How the data were processed

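The authors deposited 1 peak list per library with 3 columns, chromosome, start and end; these other values are positions in bp with no score, header or depth. Tools listed in the submitters' processing notes are MACS2, bedtools, Picard, SAMtools, Bowtie2 and cutadapt, with the build mm10; their versions, settings and roles: not given in the sources used here. Depth per library is unknown, so no interval that needs it is given.

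Genes and promoters came from RefSeq tables on GRCm38.p6. Peaks sharing at least 1 bp were joined into 560228 regions, of which 88231 had a peak in all 4 libraries. Coordinates are 1-based. "Open" means a peak within 1 kb of either gene end (or of a RefSeq start). For regions in all 4 libraries, log2 widths were quantile normalized and compared with limma 3.58.1 in R 4.3.3, with Benjamini-Hochberg adjustment; single values used exact permutation tests. Scoring and limma steps were tested on simulated data.

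The members and lists (renal epithelial, neuronal, cardiac, partners, markers) were chosen with earlier results of these data known. Named by rule were all renal genes, the 6 widest open neuronal and cardiac genes each and those closed in all libraries, the 10 genes widest or with most regions, and genes specific to 1 treatment. Starts were scored as a second reading of gene ends; the CpG bins, the count of genes wider under 1 treatment, the promoters printed and other named genes were chosen after values were seen. Alternatives were window and flank, library requirement, widest peaks, leaving out each library, normalization, overlap and replicate block. Some genes that the rule names are counted and not reported here by name.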

Additional observations from a re-analysis of the deposited data

How the results depend on the processing

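The share of potassium channel genes open in all libraries was 62.4%, and became 50.5% with a 0.5 kb window, 73.1% with 2.5 kb and 91.4% with a peak in any library. It was 60.2% to 68.8% under the others, leave-one-out included (62.4% to 68.8%). Renal minus neuronal (-1.36 points) became -7.92 with 0.5 kb, 8.14 with 2.5 kb, -12.4 with any library, -9.05 with the widest peaks of each library, -19.4 at RefSeq starts and 8.13 without chromosomes 4, 7, 13, 18 and X, an alternative chosen after seeing the data; leaving out a library gave -7.24 to 3.39. Renal minus cardiac (-0.77 points) became -11.4 with Kcnq1 and Kcne1 as cardiac and 13.3 without those chromosomes, and -10.8 to -0.77 leaving out a library. The cause was not tested for any of these. Neither class difference kept 1 direction. The log2 ratio of peaks, dDAVP over vehicle, was -0.28, and -0.69 to 0.30 leaving out a library: it was 0.30 without vehicle replicate 1. The width comparison called 0 regions under each of its 7 alternatives. Genes wider in every vehicle library numbered 16 (27.6%, against 14.4% of all open genes); leaving out a library gave 19 (32.8%, against 30.7%, without vehicle replicate 1) to 40 (69.0%, against 34.7%, without vehicle replicate 2). Deviations of same-numbered libraries from their treatment means had a correlation of 0.0969. With 2 libraries per treatment both pairs must give the same number, so it is a single value. No label says that numbers mark pairs. With a replicate block, limma called 0 regions and the log2 ratio was -0.22. Unknown depth limits every absence of a peak.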

Other observations

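Non-coding genes that overlap potassium channel genes also had peaks at their ends. Kcnq1ot1, the imprinted antisense RNA inside Kcnq1, had a peak within 1 kb of its upper end (chromosome 7, position 143296547) in all 4 libraries, 761 and 456 bp wide under dDAVP, against 620 and 1179 bp under vehicle, and none at its lower end. The peak that counts for Kcnd3 also lies at the upper end of Kcnd3os, and the peak of Kcnmb4 at both ends of Kcnmb4os2, so peaks there cannot be assigned to 1 gene of each pair.

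The widest region of all 4 libraries near the family lay outside Kcnk16, a two-pore domain channel of the pancreas, at chr14:20253691-20257075, with 3319 and 3364 bp of peaks in the dDAVP libraries, against 3324 and 3351 bp in the vehicle libraries. Inside genes, Kcnab1, an auxiliary subunit of Kcna channels, held one at chr3:65195290-65197502, with 2171 and 2200 bp under dDAVP, against 2134 and 2213 bp under vehicle. Kcnh1, a neuronal gene open at its gene ends in dDAVP replicate 1 alone, held another at chr1:192229624-192231877, with 1830 and 2210 bp under dDAVP, against 2253 and 2207 bp under vehicle. These regions were picked after their values were seen.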
